A study of Mus musculus with 2 samples.

Results

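The cytosolic ribosomal protein genes described here were measured by polyA mRNA RNA-seq in G1E-ER4 cells, an immortalized mouse erythroid line. They were chosen by symbol: every gene named Rpl or Rps followed by a number, with the usual letter endings and with or without a closing l, together with Rplp0, Rplp1, Rplp2 and Rpsa. Symbols with a -ps ending, which mostly mark pseudogenes, were left out. A few of them, such as Rpl10-ps3 and Rps12-ps3, are annotated as protein coding. The rule took in 89 of the 43346 genes in the deposited tables. Of these, 77 encode the standard proteins of the ribosome, 46 of the large and 31 of the small subunit, and 12 are paralogs or retrocopies outside that set. The rule did not take in Fau and Rack1, which also encode ribosomal proteins.

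The parent G1E line lacks Gata1, the gene of the master transcription factor of red cell development, and the ER4 derivative carries GATA1 fused to the ligand-binding domain of the estrogen receptor, so that estradiol switches the factor on. All cells had received 17beta-estradiol at 10 nM and were taken after 24 h. The study held 1 group with 2 libraries, labelled biological replicate 1 and biological replicate 2, and therefore no comparison between conditions. One biosample record covers both libraries, and biological and technical differences between them cannot be told apart. As a cell line of clonal origin it represents 1 genetic background, labelled male and postnatal with an age of 0 day. All 10 erythroid markers examined reached 1 TPM in both libraries, among them Slc4a1, the anion exchanger of the red cell membrane, at 761 TPM in replicate 1 and 535 TPM in replicate 2, whereas no marker of monocytes, neutrophils, B cells, T cells or stroma reached 1 TPM in both libraries. Of 4 megakaryocyte markers, Gp9 and Itga2b did so. Gata1, at 3038 TPM in replicate 1 and 2940 TPM in replicate 2, says nothing of the cell type here, since its reads can come from the introduced fusion. TPM, a level scaled to the sum of each library and corrected for transcript length, is the only scale here on which levels of different genes are compared. The libraries held 70451042 and 13841487 estimated counts, so the error of counting is larger in replicate 2.

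The ribosome is built from a large and a small subunit, each an RNA core coated with proteins that are needed in equal numbers, 1 copy each apart from the stalk proteins P1 and P2. Mammalian ribosomal protein mRNAs belong to the 5′ terminal oligopyrimidine (TOP) mRNAs, whose translation is held under the control of mTOR by a stretch of C and T bases at the start of the transcript. Red cell precursors are especially sensitive to the supply of these proteins: loss of 1 copy of any of several ribosomal protein genes causes Diamond-Blackfan anemia in humans.

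The windows around the annotated transcription start hold a C and T stretch in some members, and lack it in others, at both ends of the range of levels. RefSeq promoter sequences (assembly GRCm38.p6) were matched for 64 of the 89 genes, with 76 windows. Below are the 4 most abundant large subunit genes and the 2 most abundant small subunit genes that have a window in the table, and then the 4 least abundant standard members that have one. Each is 30 bases long, 15 before and 15 from the annotated start, and capitals mark the stretch of at least 5 C or T bases that opens with C within 10 bases of that start. The marking begins at the nearest such C, so further C and T bases may stand directly before the capitals.
Rpl28, chr7:4792950-4792979, plus strand: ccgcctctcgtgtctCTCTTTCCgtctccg
Rpl18, chr7:45718056-45718085, plus strand: tgcgtctcgcaggccgCTCTTTCCCCgccc
Rplp2, chr7:141447636-141447665, plus strand: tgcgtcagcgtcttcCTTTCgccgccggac
Rpl13a, chr7:45128731-45128760, minus strand: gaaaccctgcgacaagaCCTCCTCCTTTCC
Rps15, chr10:80292416-80292445, plus strand: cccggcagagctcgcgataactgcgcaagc
Rps26, chr10:128626492-128626521, minus strand: gtcgggcaagccgccggatCCTCTTTCgag
Rps15a, chr7:118116133-118116162, minus strand: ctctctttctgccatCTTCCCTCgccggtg
Rpl37, chr15:5116598-5116627, plus strand: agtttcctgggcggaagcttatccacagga
Rpl9, chr5:65391417-65391446, minus strand: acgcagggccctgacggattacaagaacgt
Rpl24, chr16:55966260-55966289, plus strand: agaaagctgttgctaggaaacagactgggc

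The stretch is present in the windows of Rpl28, Rpl18, Rplp2, Rpl13a, Rps26 and Rps15a, and not in those of Rps15, Rpl37, Rpl9 and Rpl24. In Rpl28, Rplp2 and Rps15a the marked part opens on the annotated start base itself. In Rpl28 and Rplp2 the run of C and T bases, with a C among them, begins further upstream. In Rps15a only a T precedes the marked part. Of the 64 genes, 39 (60.9%) held such a stretch within 10 bases of a start, against 34.4% of the 27025 genes in the table, and 52 (81.3%) held one within 20 bases, against 53.3%. The hexamer CCGGAA, searched on both strands of the 300-base window, was present for 35 of 64 (54.7%), against 16.7% of all genes. GCCATC, also searched on both strands, was present for 15 (23.4%), against 15.9%, and TATAA in the 250 bases before the start for 11 (17.2%), against 18.4%. These matches describe the letters of the windows. The 34 standard genes with a stretch within 10 bases had a median of 290 TPM over both libraries and the 23 without one had 117 TPM. Both sets spread widely, from 5.50 to 8576 TPM with the stretch and from 8.74 to 3575 TPM without it. For the other motifs the medians ran the other way: 168 TPM with CCGGAA and 382 TPM without, 32.8 TPM with GCCATC and 415 TPM without, and 141 TPM with TATAA and 171 TPM without.

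The ribosomal protein genes were among the most abundant mRNAs of these cells, but their share of the transcript pool differed between the libraries. They held 10.5% of all TPM in replicate 1 and 5.47% in replicate 2, or 7.99% ± 3.56 (SD, n = 2). As a share of estimated counts, which is not corrected for length, they held 4.56% in replicate 1, with a 95% Wilson interval of 4.55 to 4.56, and 2.00% in replicate 2, with one of 1.99 to 2.00. These intervals cover counting error only. Among the 100 genes with the highest TPM 25 were members in replicate 1 and 7 were members in replicate 2. A level of 1 TPM or more in both libraries was reached by 81 of the 89 members (91.0%), against 33.1% of all protein coding genes. Of the 77 standard members 76 did so. The exception was Rps3a1, listed at 0 in replicate 2.

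Although the ribosome takes up its proteins in equal numbers, the mRNA levels of the standard members spanned more than 3 orders of magnitude. The median was 334 TPM in replicate 1 and 69.7 TPM in replicate 2, against 19.6 and 15.3 TPM over the 7107 protein coding genes that reached 1 TPM in both libraries. The SD of log2 TPM over the 77 genes was 2.97 in replicate 1 and 3.21 in replicate 2. Over those protein coding genes it was 2.21 and 2.44. By the mean of both libraries, 3 standard members lay under 10 TPM, 30 between 10 and 100, 26 between 100 and 1000, and 18 at 1000 or more. The 5 highest members alone took 42.3% of the members' TPM in replicate 1 and 63.6% in replicate 2. The rank order was shared in broad terms: over the 77 genes the log2 TPM of both libraries had r = 0.86 and rho = 0.90, beside r = 0.83 and rho = 0.81 over the 7107 protein coding genes. Each gene's points share its annotation and length in both libraries.

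**Figure D1:**
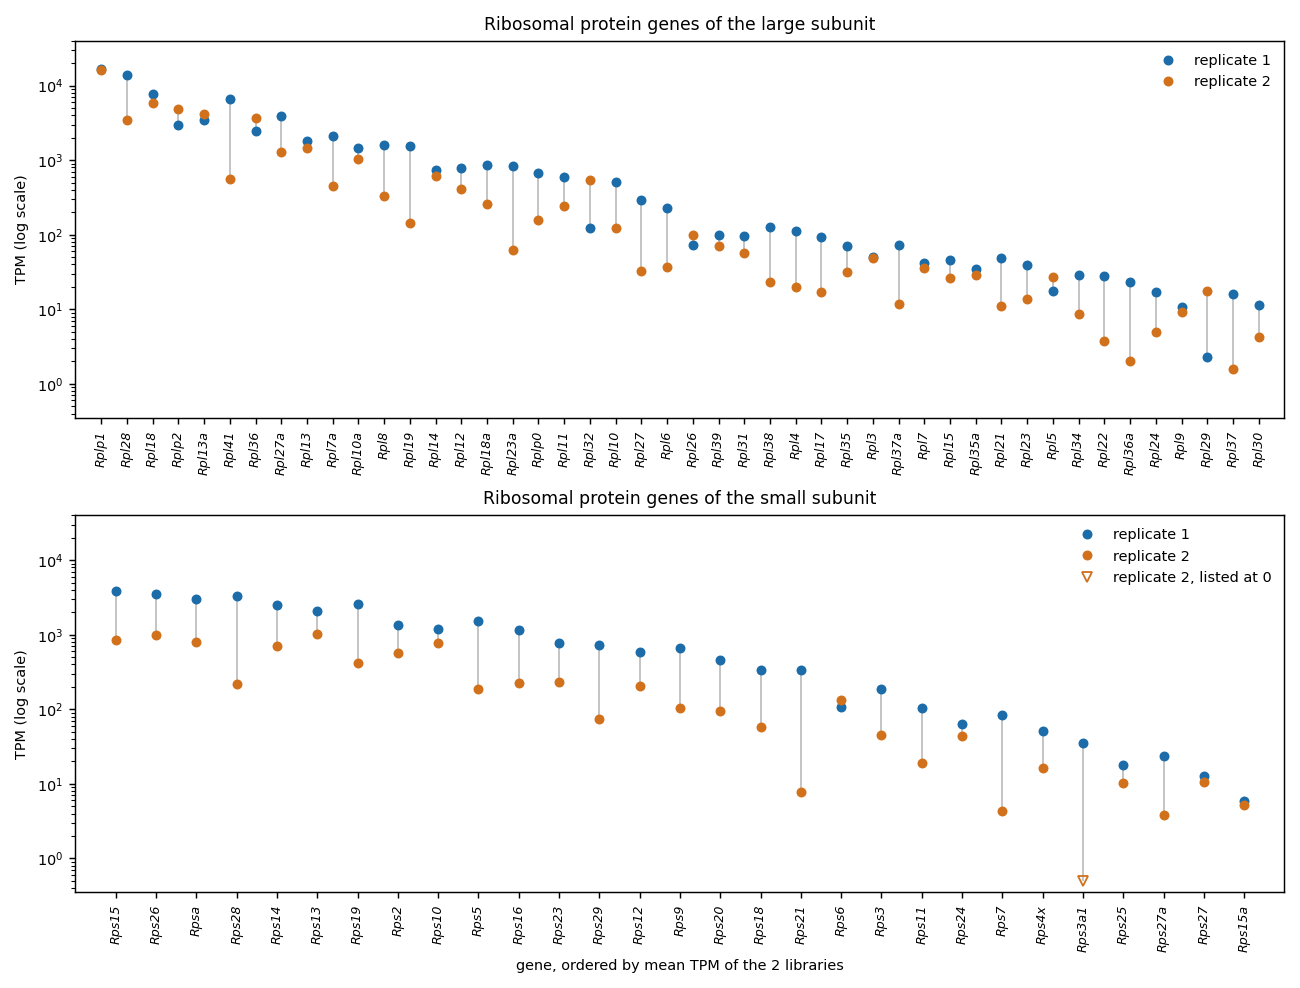
TPM on a log axis of 46 large subunit (top) and 29 small subunit (bottom) ribosomal protein genes, ordered by mean; blue points are replicate 1, orange points replicate 2, and a grey line joins the values of a gene. Large subunit means run down from 16496 TPM for Rplp1 to 7.93 TPM for Rpl30, and 28 of the 29 small subunit genes shown sit higher in replicate 1; the open triangle marks Rps3a1, listed at 0 in replicate 2.

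At the top of the large subunit stood Rplp1, which encodes the acidic stalk protein P1, on chromosome 9 (61913284 to 61914542, minus strand, mm10). It was measured at 16560 TPM in replicate 1 and 16432 TPM in replicate 2. The libraries differed by under 1% at this gene on the TPM scale. Rpl28, whose protein has no counterpart in budding yeast, came next, at 13690 TPM in replicate 1 and 3462 TPM in replicate 2. Rpl18 (chromosome 7, 45715457 to 45720836, plus strand) stood at 7774 TPM in replicate 1 and 5830 TPM in replicate 2. Rpl13a, which encodes a protein also known as part of the GAIT complex that silences inflammatory mRNAs in human monocytes, stood at 3496 TPM in replicate 1 and 4197 TPM in replicate 2. Rpl18 and Rpl13a were among the most abundant members in both libraries, while Rpl28 stood several times higher in replicate 1.

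At the lower end of the same subunit, Rpl30 had 11.6 and 4.25 TPM in replicates 1 and 2. Rpl37 had 15.9 and 1.58 TPM in replicates 1 and 2. Rpl29 had 2.27 and 17.8 TPM in replicates 1 and 2, in the opposite direction to Rpl37. Rpl9, which lies near the base of the stalk, had 10.9 and 9.28 TPM in replicates 1 and 2. Rpl24, which helps to bridge the subunits, had 16.9 and 4.95 TPM in replicates 1 and 2. The order among these 5 genes is not settled by the data, since each mean lies within the spread of its neighbours.

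The stalk of the large subunit recruits the translation factors that hydrolyse GTP. It consists of P0, encoded by Rplp0, and 2 pairs of P1 and P2, encoded by Rplp1 and Rplp2. Rplp2 had 2977 and 4842 TPM in replicates 1 and 2, and Rplp0 had 676 and 158 TPM in replicates 1 and 2. The level of Rplp1 was 24.5 times that of Rplp0 in replicate 1 and 103.8 times in replicate 2, and 5.56 and 3.39 times that of Rplp2. These ratios are of whole genes. Coding transcripts held 54.0% of the TPM of Rplp2 in replicate 1 and 8.12% in replicate 2. For Rplp0 they held 19.4% and 64.5%, and for Rplp1 100% in both. Together the 3 stalk genes held 19.2% of the members' TPM in replicate 1 and 39.2% in replicate 2. Their summed level was nearly the same in both libraries, 20212 TPM and 21432 TPM.

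The small subunit was led by Rps15, on chromosome 10 (80292453 to 80294114, plus strand), at 3897 TPM in replicate 1 and 852 TPM in replicate 2. Rps26, whose protein lies at the mRNA exit channel, had 3470 and 988 TPM in replicates 1 and 2. Rpsa, also known as the laminin receptor, had 2977 and 789 TPM in replicates 1 and 2. All of these stood about 3 to 5 times higher in replicate 1. Rps28 followed with 3324 TPM in replicate 1 and 217 TPM in replicate 2, and Rps14, whose human counterpart lies in the region lost in 5q- syndrome, with 2484 TPM in replicate 1 and 709 TPM in replicate 2.

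The lowest small subunit gene, and the lowest of all standard members by mean, was Rps15a, at 5.80 TPM in replicate 1 and 5.19 TPM in replicate 2. Rps27 had 12.7 and 10.7 TPM in replicates 1 and 2, and Rps25, needed for translation from several viral entry sites, 17.9 TPM in replicate 1 and 10.2 TPM in replicate 2. With its -ps entry added, Rps25 came to 83.0 TPM in replicate 1 and 97.7 TPM in replicate 2. Rps27a, which is made as a fusion with ubiquitin, had 23.9 and 3.79 TPM in replicates 1 and 2. Rps3a1 had 35.2 TPM in replicate 1, from 1999 estimated counts, and was listed at 0 in replicate 2. The small subunit therefore lacked genes at the level of Rplp1 and Rpl28, and its lowest members overlapped with those of the large subunit.

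By summed level, mRNAs of the large subunit exceeded those of the small one in both libraries. The large subunit held 7.28% of all TPM in replicate 1 and 4.68% in replicate 2 (5.98% ± 1.84, SD, n = 2), and the small subunit 3.20% in replicate 1 and 0.789% in replicate 2 (2.00% ± 1.71). The log2 ratio of large over small was 1.18 in replicate 1 and 2.57 in replicate 2, or 1.88 ± 0.98 (SD, n = 2). Without the stalk genes it was 0.72 and 1.68. With 2 libraries an exact sign-flip test cannot give a p under 0.5, so no test was made. The median gene told the opposite: the large subunit median was 125 TPM in replicate 1 and 59.7 TPM in replicate 2, and the small subunit median 592 TPM in replicate 1 and 94.0 TPM in replicate 2. The log2 ratio of medians was -2.24 in replicate 1 and -0.66 in replicate 2, so the sum and the median differed in sign in both libraries. The 5 highest members by mean all belonged to the large subunit, while the median small subunit gene was the more abundant.

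Level and base composition varied together over the members. The GC content of the coding transcripts and log2 TPM had r = 0.49 in replicate 1 and 0.53 in replicate 2 over the 77 standard genes, with rho = 0.53 in both. Over 7093 detected protein coding genes r was 0.27 in replicate 1 and 0.32 in replicate 2. The 38 standard genes with a GC content above the median of 52.1% had a median of 1249 TPM in replicate 1 and 211 TPM in replicate 2, and the other 39 had 82.7 TPM and 35.8 TPM. The 10 most abundant members had a median GC content of 55.2% and the 10 least abundant 48.7%. Exceptions existed in both directions: Rps20 had the lowest GC content of all standard members, 41.3%, with 454 TPM in replicate 1 and 94.0 TPM in replicate 2, and Rpl29 had 57.0% with 2.27 TPM and 17.8 TPM. The log2 TPM ratio between the libraries had r = -0.15 with GC content. Gene length had r = -0.21 with log2 TPM in replicate 1 and -0.19 in replicate 2. These are descriptions over genes of the same libraries, and the part of base composition in library preparation was not tested.

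**Figure D2:**
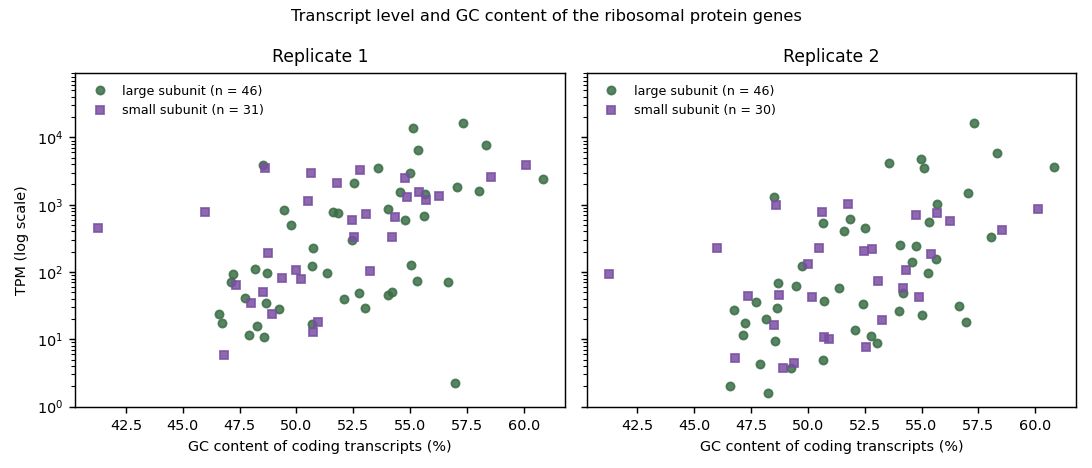
TPM on a log axis against the GC content of the coding transcripts in percent, for replicate 1 (left, 77 genes) and replicate 2 (right, 76 genes, without Rps3a1 at 0); circles are large and squares small subunit genes. Levels were higher at higher GC content in both libraries (r = 0.49 and 0.53), with Rps20 at 41.3% GC standing apart on the left of each panel.

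Between the libraries the ribosomal protein genes did not follow the bulk of the transcriptome. Counts were scaled by TMM, a scaling to the bulk of genes, and compared by a two-sided exact binomial test with Benjamini-Hochberg adjustment over the 8884 genes that averaged 1 CPM or more, CPM being counts scaled to the size of the library. The test compares these 2 libraries and takes no account of the variation between cultures. Genes with an adjusted p under 0.05 and a difference of at least 2-fold were called. Of the 82 members tested, 54 (65.9%) were higher in replicate 1 and 4 were lower, whereas of all genes tested 30.0% were higher and 17.9% lower in replicate 1, 47.9% in all. The members' median log2 ratio of replicate 1 over replicate 2 was 1.60, and that of all genes was 0.20. The small subunit had a median of 1.88, with 23 genes higher and 1 lower, and the large subunit 1.34, with 27 higher and 3 lower. Among 1635 genes with a mean of at least 100 CPM, the median of all was -0.50, and that of the 38 members among them 1.61. The median of all genes itself depended on the scaling, at 0.20 with TMM, 0.13 with DESeq2 size factors and 0.61 with total counts, and that of the members was 1.60, 1.53 and 2.00. The summed level of the 10 erythroid markers, most of it globin mRNA, also differed, at 233518 TPM in replicate 1 and 89080 TPM in replicate 2. The median of these markers ran the other way, at 1135 TPM in replicate 1 and 1363 TPM in replicate 2, and Klf1, an erythroid transcription factor, was lower in replicate 1, at 665 TPM against 2351 TPM in replicate 2. By the same thresholds 4 of the 10 markers were higher in replicate 1 and 1 was lower. The part of these differences and of depth in the shift of the ribosomal protein genes was not tested, and in bulk RNA a change in the share of cells cannot be told apart from a change in RNA per cell.

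**Figure D3:**
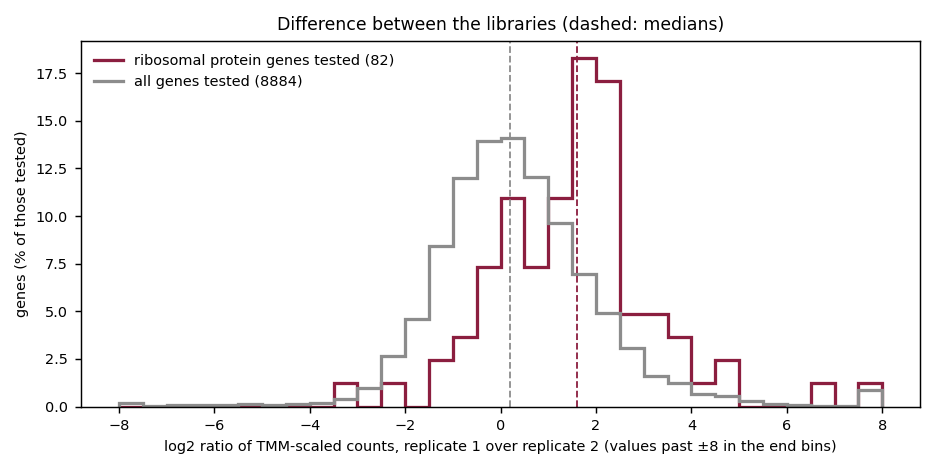
Distribution of the log2 ratio of TMM-scaled counts, replicate 1 over replicate 2, in bins of 0.5 as a percent of the genes tested, for the 82 ribosomal protein genes (red) and all 8884 genes (grey). Dashed lines mark the medians, 1.60 and 0.20, and the red curve keeps a tail below 0 with few genes.

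The largest differences were in the small subunit. Rps21 had 334 and 7.72 TPM in replicates 1 and 2, a 30.7-fold difference of the scaled counts. Rps7, whose product also binds Mdm2 in human cells, had 82.7 and 4.39 TPM in replicates 1 and 2, 16.7-fold apart. These differences were far past the 2-fold threshold and past the members' own median. Rps3a1 and Rps3a3 had larger ratios still, but these depend on how reads were divided between near-identical copies, which are described further on.

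Of the 82 members tested, 13 had a negative log2 ratio, and 4 of these passed both the adjusted p and the 2-fold threshold. Rpl29 had 90.8 estimated counts in replicate 1 and 119.9 in the much smaller replicate 2, a log2 ratio of -3.13. Rpl32 had 124 and 541 TPM in replicates 1 and 2 (log2 ratio -2.34), and Rplp2 had a log2 ratio of -1.27. Rps15a had a log2 ratio of -1.41 although its TPM values were nearly equal. Its leading transcript changed with the library, Rps15a-203 at 250 bases with 56.3% of its TPM in replicate 1 and Rps15a-204 at 3721 bases with 63.9% in replicate 2, so counts and length-corrected levels gave different pictures of this gene. Next in this direction was Rpl36, at -0.84, short of the 2-fold threshold. At the centre, Rpl3, which lies near the peptidyl transferase centre, had 50.5 and 48.3 TPM in replicates 1 and 2 (log2 ratio 0.02, adjusted p = 0.834 by the exact binomial test), and Rpl14 had 741 and 616 TPM in replicates 1 and 2. The near equality of Rpl3 holds for its own entry only. With its -ps entries added, Rpl3 came to 121 TPM in replicate 1 and 52.1 TPM in replicate 2.

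Genes mutated in Diamond-Blackfan anemia in humans lay toward the lower part of the standard set. Their 20 mouse counterparts had a median of 88.9 TPM in replicate 1 and 50.4 TPM in replicate 2, and the other 57 standard members 502 TPM and 106 TPM. Of the 20, 10 were higher in replicate 1 and 1, Rps15a, lower, and of the 57, 40 were higher and 3 lower. Beside these counts, 30.0% of all genes tested were higher and 17.9% lower in replicate 1. Rps19, the gene mutated most often in patients, had 2579 and 423 TPM in replicates 1 and 2. Its coding transcripts held only 6.74% of that level in replicate 1 and 52.8% in replicate 2. The higher level in replicate 1 therefore holds for the whole gene and not for its coding transcripts. Rps26 and Rps28, given above, and Rps10, at 1176 TPM in replicate 1 and 766 TPM in replicate 2, were also abundant, and Rpl18 was the highest of the list. Rps29 had 726 and 74.2 TPM in replicates 1 and 2, and Rps20 454 TPM and 94.0 TPM. Several others lay under 100 TPM. Rps24 had 63.4 and 43.9 TPM in replicates 1 and 2. Among large subunit genes of the list, Rpl26 had 73.9 and 97.8 TPM in replicates 1 and 2, and Rpl27 296 TPM and 33.2 TPM. Rpl15, Rpl31, Rpl35 and Rpl35a ranged from 34.7 to 95.1 TPM in replicate 1 and from 26.2 to 56.9 TPM in replicate 2. Rpl5, Rpl11 and Rpl23 encode the proteins that bind and inhibit Mdm2, the ubiquitin ligase of p53, when ribosome assembly fails. Rpl11 had 586 and 243 TPM in replicates 1 and 2, far above Rpl23, at 39.2 TPM and 13.6 TPM, and Rpl5, at 17.7 TPM and 27.5 TPM. Rpl5 and Rpl11 enter the ribosome as 1 particle with 5S RNA, yet their mRNA levels stood apart in both libraries.

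Of the 12 genes outside the standard set, 5 reached 1 TPM in both libraries and 4 had no counts in either. Rpl10l and Rpl39l, both known from testis, and Rps4l had no counts in either library, so that Rpl10, Rpl39 and Rps4x exceeded them in replicate 1 by at least 10052-fold, 1186-fold and 927-fold, and in replicate 2 by at least 409-fold, 142-fold and 49.9-fold, against a floor of 3 counts per library. Rpl3l, the striated muscle form of Rpl3, had 7 counts in replicate 1 and none in replicate 2. Rpl3 was 631 times as abundant in replicate 1 and at least 157 times in replicate 2. Rpl7 exceeded Rpl7l1 18.3 times in replicate 1 and 58.6 times in replicate 2, with 2.26 TPM and 0.61 TPM of Rpl7l1.

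In 3 pairs the paralog was expressed within reach of its usual partner. Rps27l, a target of p53, had 113 and 7.51 TPM in replicates 1 and 2, beside 12.7 TPM and 10.7 TPM of Rps27. The log2 ratio of Rps27 over Rps27l was thus -3.14 in replicate 1 and 0.51 in replicate 2, opposite in sign. Rpl36al had 32.0 and 4.74 TPM in replicates 1 and 2, against 23.4 TPM and 2.02 TPM of Rpl36a, so the paralog was the higher of the pair in both libraries (log2 ratio -0.82 ± 0.52, SD, n = 2). The coding sequences of this pair are identical at 87.7% of aligned bases. Rpl22 had 27.8 and 3.78 TPM in replicates 1 and 2, and Rpl22l1, which Rpl22 represses at the level of its mRNA in mouse, 3.09 TPM and 1.89 TPM. Set beside the 95th percentile of the difference between libraries over genes of like level, the ratio was larger for Rpl3 with Rpl3l, Rpl7 with Rpl7l1 and Rpl6 with Rpl6l, an annotated pseudogene, and was not larger for Rpl22 with Rpl22l1, Rpl36a with Rpl36al and Rps27 with Rps27l. For the pairs whose second gene had no counts this comparison carries no information, since genes of like level are also at 0. It says little for Rpl3l and Rpl6l too, which had few counts in replicate 1 and none in replicate 2. At such levels the 0.1 TPM added before taking logs keeps the spread small, at 0.93 and 1.96. The mean log2 ratio of Rpl7 over Rpl7l1 passed narrowly, at 4.90 against 4.80.

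**Figure D4:**
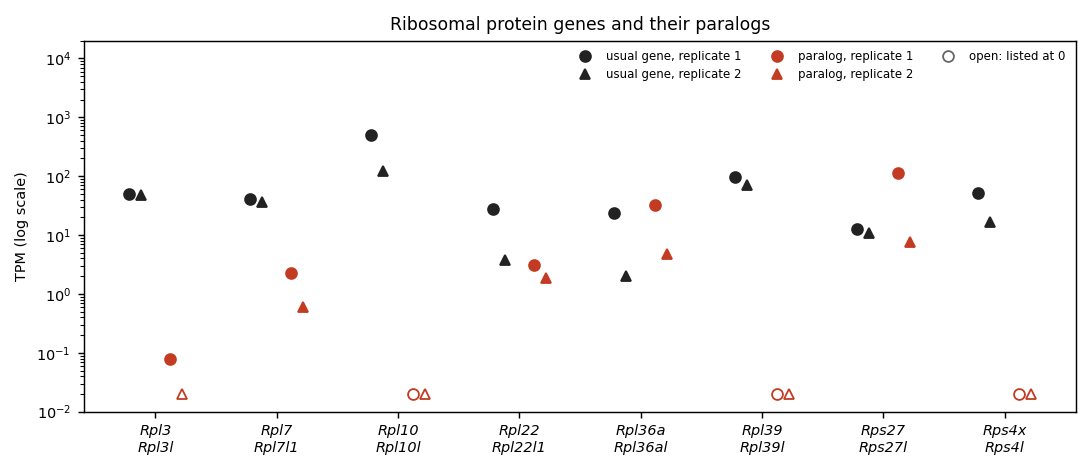
TPM on a log axis of 8 ribosomal protein genes (black) and their paralogs (red); circles are replicate 1, triangles replicate 2, and open symbols at the bottom are values listed at 0. Rpl10l, Rpl39l and Rps4l were at 0 in both libraries, and Rpl36al and Rps27l reached 32.0 and 113 TPM in replicate 1.

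Near-identical copies among the members complicated the count of a few genes, and copies with a -ps ending are given after them. Rps3a1 has copies, Rps3a2 and Rps3a3, identical to it at 99.5% and 99.0% of aligned bases. In replicate 1 the estimates were 35.2 TPM for Rps3a1, 6.43 TPM for Rps3a2 and 141 TPM for Rps3a3, and in replicate 2 they were 0, 6.06 and 1.10 TPM. How reads divide between such copies is uncertain, and their sum is the safer value: 183 TPM in replicate 1 and 7.16 TPM in replicate 2. Rpl6l and Rps12l1, pseudogenes by annotation, are identical to Rpl6 and Rps12 at 98.7% and 96.4% of aligned bases. Rpl6l received 12.8 estimated counts in replicate 1 and none in replicate 2, and Rps12l1 none in either, while Rpl6 had 229 TPM and 37.3 TPM and Rps12 592 TPM and 206 TPM.

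The -ps entries, left out by the rule, took up more of the signal in replicate 2. There were 257 of them, 28 with at least 1 TPM in both libraries and 159 at 0 in both. Any copies under other symbols were not counted. Their sum was 938 TPM in replicate 1 and 2387 TPM in replicate 2, equal to 0.893% and 4.37% of the members' sum. Much of the replicate 2 value lay in Rpsa-ps2, a processed pseudogene on chromosome 10 (128776371 to 128777250, minus strand, mm10), listed at 3.92 TPM in replicate 1 and 1368 TPM in replicate 2. Rpsa itself, with all its -ps entries added, came to 3029 TPM in replicate 1 and 2245 TPM in replicate 2, closer together than Rpsa alone. Rps10-ps2 had 237 and 627 TPM in replicates 1 and 2, and the Rps10 family summed to 1424 TPM and 1396 TPM. The Rpl3 family moved further apart instead. Rpl3-ps1 had 70.6 and 3.86 TPM in replicates 1 and 2, and the family summed to 121 TPM and 52.1 TPM. For Rps25 the pseudogene entry Rps25-ps1 exceeded the gene in both libraries, with 65.1 TPM in replicate 1 and 87.5 TPM in replicate 2. When -ps counts were added to their parent genes, an alternative chosen after seeing the data, the members' median log2 ratio between the libraries was 1.59, with 55 genes higher and 4 lower in replicate 1.

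Transcript estimates placed most of the members' signal on coding transcripts, but that of several members mostly on forms that do not encode the protein. Of 57 members with more than 1 transcript and a mean of 10 TPM or more, 37 (64.9%) shared their leading transcript between the libraries, against 66.5% of all 3700 such genes, so the members were near the background in this respect. The leading transcript was protein coding for 42 in replicate 1 and 38 in replicate 2, and annotated as retaining an intron for 8 and 11. Over all members, coding transcripts held 79.0% of TPM in replicate 1 and 65.5% in replicate 2, and retained-intron transcripts 10.9% and 16.2%. Over all genes coding transcripts held 57.7% in replicate 1 and 61.1% in replicate 2, less than over the members in both, and retained-intron transcripts 27.4% and 12.3%. Biotypes are those of a later annotation release than the one the authors used, and transcripts missing from it held 8.39% and 17.1% of the members' TPM, among them the leading forms of Rpl18 and Rpl13a.

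In 5 genes a retained-intron transcript led in both libraries. Rpl12-202 held 94.0% of the gene's TPM in replicate 1 and 97.6% in replicate 2, and Rps16-202 82.6% and 83.2%. Rpl27a-204 held 67.2% and 86.2%. For Rps19 the library changed the picture: Rps19-206, which retains an intron, held 93.0% in replicate 1 and 43.5% in replicate 2. Rplp2 went the other way, led by the coding Rplp2-203 with 48.8% in replicate 1 and by the intron-retaining Rplp2-206 with 91.9% in replicate 2. Counting coding transcripts only, Rplp2 had 1608 and 393 TPM in replicates 1 and 2, against the opposite order of the whole gene. Rplp0 was led by the intron-retaining Rplp0-203 with 80.6% in replicate 1, and its coding transcripts came to 131 TPM in replicate 1 and 102 TPM in replicate 2. The coding share was more than 10 percentage points higher in replicate 1 for 16 of 55 standard members and more than 10 points higher in replicate 2 for 9. Leaders also differed between the libraries for Rpl5, Rpl6, Rpl7a, Rpl9, Rpl10a, Rpl13, Rpl13a, Rpl15, Rpl22, Rpl23, Rpl27, Rpl31, Rpl34, Rpl35a, Rpl36a, Rps6 and Rps21.

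**Figure D5:**
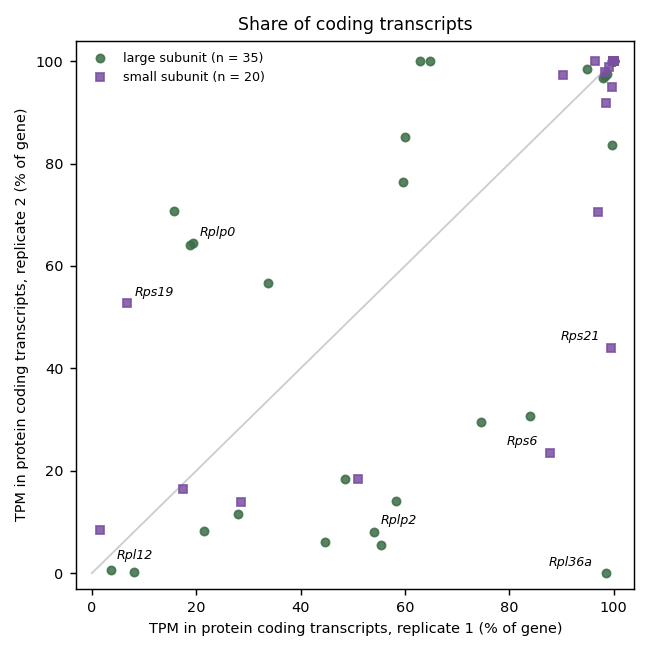
Share of each gene's TPM in protein coding transcripts, replicate 1 on the horizontal and replicate 2 on the vertical axis, in percent, for 35 large subunit genes (circles) and 20 small subunit genes (squares); the grey line marks equal shares, and transcripts absent from the later annotation count as not coding. Most genes sit at the upper right; Rplp2 and Rps21 lie below the line and Rps19 and Rplp0 above it.

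Many ribosomal protein genes carry small nucleolar RNAs (snoRNAs), guides of ribosomal RNA modification, inside their introns. In the annotation 30 of the 77 standard members (39.0%) contained a snoRNA gene on the same strand, 58 snoRNA genes in all, against 1.18% of the 21951 protein coding genes. Rpl4 held 5 and Rpl13a held 4. The 30 host genes had a median of 478 TPM in replicate 1 and 81.9 TPM in replicate 2, and the 47 others 296 TPM and 58.6 TPM. A retained-intron transcript led in 6 of the 30 hosts in each library, Rpl12, Rpl27a and Rps16 among them in both, and in 2 of the 47 others in replicate 1 and 5 in replicate 2.

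Among related genes outside the list, Fau, which encodes a ribosomal protein fused to a ubiquitin-like protein, stood at 2612 TPM in replicate 1 and 2248 TPM in replicate 2. Rack1, a scaffold protein on the small subunit, stood at 1351 TPM in replicate 1 and 619 TPM in replicate 2. Neither passed the 2-fold threshold between the libraries. All 16 other TOP mRNAs examined, which encode translation factors and the like, were detected at 1 TPM or more in each library, and their median was 116 TPM in replicate 1 and 53.7 TPM in replicate 2. Of these 8 were higher in replicate 1 and 2 lower, Pabpc1, the poly(A) binding protein, at 1159 TPM in replicate 1 and 2663 TPM in replicate 2, and Eif3f at 330 TPM and 1958 TPM. Of all genes tested, 30.0% were higher and 17.9% lower. The median log2 ratio of the 16 was 1.05, against 0.20 for all genes. Among 12 regulators of TOP mRNAs and of ribosomal protein supply, Larp1, which binds the TOP stretch, had 148 and 118 TPM in replicates 1 and 2. Tsr2, the chaperone of Rps26, had 2.11 TPM and 1.37 TPM. Of these 12, Mlst8 and Rps6kb1 were higher in replicate 1 and none was lower, against 30.0% higher and 17.9% lower of all genes tested, so no excess is seen in this list.

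The members' estimates were less precise in replicate 2, the library of lower depth. The deposited estimation interval of TPM had a median width of 5.22% of the value in replicate 1 and 21.6% in replicate 2. It was narrowest for Rplp1, at 0.621% and 1.49%, and widest for Rpl22l1, at 214% and 1025%.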

How the data were processed

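PolyA RNA-seq data of 2 libraries of 1 group were used as the authors deposited them, with mm10 as the assembly per the labels. Per the file headers, the authors' tables give estimated counts, TPM and FPKM for genes and transcripts and, for transcripts, the percent of the gene's level. They also hold posterior means and, as score values deposited by the authors, interval bounds and posterior SDs whose level is not stated. FPKM served only as an alternative unit. Quantification tool and strand use: not given in the sources used here, so reads of overlapping or antisense genes cannot be told apart. Members were matched by gene ID to GENCODE M21 symbols (42462 of 43346 genes matched). Estimated counts were rounded and scaled by TMM (edgeR 4.0.16, R 4.3.3; DESeq2 1.42.0 size factors as an alternative), with a prior count of 0.5 for log2 ratios, and tested by an exact binomial test on genes averaging 1 CPM or more. Paralog log2 ratios of TPM used a pseudocount of 0.1 and were set beside the 95th percentile over 500 genes of like level. GC content is the median over the M21 coding transcripts of each gene. On simulated counts (8848 genes, replicate 1 over replicate 2) the test called 97 of 99 genes changed 3-fold, 100 of 100 changed 8-fold and 1 of 8649 unchanged. The simulated counts held counting error only, so these rates do not give the error rate between the real libraries. No replicate test between cultures exists with 2 libraries, and p-values measure only reads. Named genes were the 5 highest and lowest of each subunit, the stalk genes, paralog pairs, the 5 largest differences in each direction, Diamond-Blackfan and Mdm2 genes, and genes whose leading transcript changed. Rpl14, Rps12 and the transcripts of Rps16, the snoRNA hosts and the -ps entries named were chosen after their values were seen. Single-gene results of a few genes are not reported here. The members and lists were chosen with earlier results of these data known. Alternatives were other estimates, units, scalings, filters, folds and leaving out each library. Figures were drawn with matplotlib 3.10.9.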

Additional observations from a re-analysis of the deposited data

How the results depend on the processing

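No paired analysis was possible because the study has 1 group. Leaving out 1 library gave a members' share of TPM of 5.47% to 10.5%, 81 to 83 members detected, a median level of 69.7 to 334 TPM, a large over small log2 ratio of 1.18 to 2.57, 6 to 7 paralog ratios past the spread (4 of them pass by construction, as the second gene is at 0) and 938 to 2387 TPM in -ps entries. The paralog ratios with Rpl3l and Rpl6l also rest on a second gene with few counts. The members' share was 3.28% of estimated counts, against 7.99% of TPM. The members' median log2 ratio between the libraries was 2.00 with total counts and 1.73 from deposited TPM, against 1.60. With a mean CPM of at least 10, 2 members were lower in replicate 1, against 4. The log2 ratio of Rps27 over Rps27l was 0.51 without replicate 1 and -3.14 without replicate 2, against -1.32, and that of Rpl7 over Rpl7l1 was 4.14 without replicate 2, under the spread of 4.80 for genes of like level. The causes were not tested. Protein coding transcripts alone, an alternative chosen after seeing the data, gave a share of 5.94%, a median of 107.9 TPM and a log2 ratio of large over small of 1.51. Replicate 2 has the lower depth: 3 counts are 0.217 CPM there and 0.0426 CPM in replicate 1.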
